A study of Homo sapiens with 12 samples.

Results

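Metyrapone (MET) was set against vehicle (VEH) in a human adrenocortical cell line, and groups of genes were examined for small shifts that they share, since single genes differed little. The genes compared were the protein-coding genes that reached a TPM of 1 in 4 or more of the 8 MET and VEH samples. TPM, the unit of the deposited values, gives the share that a gene has among the transcripts of its library once length is accounted for. This rule kept 11246 of the 19957 protein-coding genes and of 60662 genes in all, without use of any difference between the groups. Of the 11246 genes, 10816 had at least 1 TPM in all 8 samples and 430 were below 1 TPM in at least 1 of them. At the edge of the rule, 104 genes reached 1 TPM in exactly 4 samples, with mean levels of 0.834 to 1.47 TPM, and 121 genes stayed outside it with exactly 3 such samples and mean levels of 0.51 to 1.44 TPM.

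NCI-H295R is a line of adrenocortical carcinoma cells that makes cortisol, and all samples came from this 1 line. Confluent cells spent 12 h without serum. They were then given 0.1% DMSO (VEH) or 30 µM MET for 24 h, with 4 samples described as biological replicates in each group. Another 4 samples, treated with 30 µM CJ28, another inhibitor of cortisol synthesis, entered the statistical fit and is otherwise used only for values set side by side.

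MET blocks CYP11B1, the mitochondrial enzyme that makes cortisol in its last step, and is used to lower cortisol in Cushing's syndrome. Cortisol is made from cholesterol, which adrenocortical cells take up from lipoproteins or build from acetyl-CoA through the mevalonate pathway. The genes of that pathway are read under the transcription factors SREBF2 and SREBF1, which SCAP carries from the endoplasmic reticulum to the Golgi when sterols are low and INSIG proteins hold back when sterols are high.

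Promoter sequences are shown for the 3 genes of cholesterol synthesis with the smallest p-values in MET against VEH and for SREBF2, their transcription factor, because all genes of cholesterol synthesis had a lower mean in MET. Each is the 250 bases before the RefSeq transcript start in GRCh38.p14. HMGCS1 is at chr5:43313413-43313662 on the minus strand, HSD17B7 at chr1:162790452-162790701 on the plus strand, EBP at chrX:48521558-48521807 on the plus strand and SREBF2 at chr22:41832855-41833104 on the plus strand. Capitals mark CCAAT on either strand (CCAAT or ATTGG), the letters of the CCAAT box that NF-Y binds in many promoters read under the SREBF factors. For HMGCS1 the first of 2 listed windows is shown.
HMGCS1: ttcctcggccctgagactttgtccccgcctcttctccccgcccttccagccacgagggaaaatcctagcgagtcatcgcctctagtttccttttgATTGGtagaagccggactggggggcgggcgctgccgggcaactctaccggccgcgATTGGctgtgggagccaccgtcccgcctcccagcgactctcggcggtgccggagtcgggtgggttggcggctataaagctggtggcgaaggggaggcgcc
HSD17B7: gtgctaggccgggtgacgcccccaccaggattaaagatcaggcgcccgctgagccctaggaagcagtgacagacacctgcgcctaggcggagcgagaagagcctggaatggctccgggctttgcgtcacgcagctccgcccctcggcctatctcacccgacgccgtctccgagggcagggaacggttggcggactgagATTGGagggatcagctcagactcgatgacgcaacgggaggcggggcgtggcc
EBP: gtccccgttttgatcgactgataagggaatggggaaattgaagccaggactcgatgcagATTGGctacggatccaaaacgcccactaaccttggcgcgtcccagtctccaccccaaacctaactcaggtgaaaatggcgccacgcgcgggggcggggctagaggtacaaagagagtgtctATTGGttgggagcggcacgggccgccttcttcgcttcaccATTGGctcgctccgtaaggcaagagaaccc
SREBF2: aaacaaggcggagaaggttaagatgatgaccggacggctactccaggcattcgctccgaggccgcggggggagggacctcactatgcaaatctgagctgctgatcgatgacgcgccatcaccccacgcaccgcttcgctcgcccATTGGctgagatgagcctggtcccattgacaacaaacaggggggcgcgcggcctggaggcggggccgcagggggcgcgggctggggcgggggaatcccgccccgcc
CCAAT stood in the windows of 13 of the 16 cholesterol genes for which the source used gave a promoter window. This was 81.25% of these genes, against 43.1% of the genes compared that had a window. By window, 15 of their 21 held it (71.4%), against 33.96% of all 13420 windows of the genes compared. Of the other groups described below, 54.8% of windows held it for fatty acid synthesis and 54.5% for steroid synthesis. The shares were 44.4% for sterol sensing, uptake and transport and 32.5% for the glucocorticoid receptor list. For the adrenocortical regulators 20.3% of windows held it, but 40.9% of genes. These are matches of letters in short windows and were not tested as binding sites.

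No gene compared passed the threshold of an adjusted p of 0.05 in the limma fit, which is 0.0% of 11246, and the smallest adjusted p was 0.889. At an unadjusted p under 0.05 there were 555 genes (4.94%), of which 139 (1.24%) were higher in MET and 416 (3.7%) were lower. The samples of the 2 groups did not overlap in 324 genes (2.88%), 78 of them higher in MET (0.694%) and 246 lower (2.19%). Changes were small, with an absolute log2 change of at least 0.25 in 337 genes (3.0%) and of at least 0.5 in 39 (0.347%). The 95% interval of the log2 change lay within 0.5 either way for 10548 genes (93.8%). For the other genes, a change of that size lay inside the interval that 4 samples per group allow. All log2 values are on the scale log2(TPM + 0.1), which understates the change of genes with low TPM, and differences are MET minus VEH. Outside the genes compared, 1 of the 16815 genes of any class in the fit was called (0.00595%, 5.2% at an unadjusted p under 0.05). This was the histone gene H4C12, listed at 1.62, 3.74, 0.85 and 1.66 TPM in VEH and at 0 in every MET and CJ28 sample. It entered the fit only through the 4 VEH samples, the group in which it is high, so that the filter and the values of 0 fix this call and nothing is read from it. Reads of histone genes may be divided among very similar copies.

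The samples of both groups were alike as a whole. Pearson's r of log2(TPM + 0.1) across the genes compared, which are not independent replicates, was 0.991 to 0.993 for pairs within VEH, 0.992 to 0.993 within MET and 0.991 to 0.994 between them. The genes as a whole stood slightly lower in MET. A log2 change below 0 was found for 7004 genes (62.3%), and the median was -0.023 with quartiles of -0.076 and 0.026, against a median standard error of 0.0736. Over these genes, the median deviation of a sample from the mean of the 8 samples was -0.015, 0.032, -0.0049 and 0.037 in VEH-1 to VEH-4 and -0.013, 0.0073, -0.029 and -0.011 in MET-1 to MET-4. VEH-2 and VEH-4 thus stood above all the other samples, while VEH-1 and VEH-3 lay among the MET samples. Without VEH-2 and VEH-4, 49.8% of genes were lower in MET and 215 were higher and 197 lower at an unadjusted p under 0.05. With TPM rescaled by the median of ratios, 45.9% were lower and the counts turned to 314 higher and 204 lower, since this scaling moved the median of all genes up to 0.0075. VEH-2 and VEH-4 were left out because they stood highest, which by itself moves MET minus VEH up. Median-of-ratios scaling brings the samples to a common level by design. The direction of the genes as a whole did not hold under either step, but neither step tests what it rests on. Medians of groups of genes are to be read against the -0.023 of all genes.

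Transcript length moved with the same pair of samples. When the genes were split into 10 bins by the length of their longest annotated transcript, the median log2 change went from 0.0020 in the shortest bin, with 48.8% of genes lower in MET, to -0.041 in the longest, with 69.4% lower. From the shortest to the longest bin, the median deviation went from -0.0022 to 0.067 in VEH-2 and from -0.0016 to 0.063 in VEH-4. In VEH-1 it went the other way, from -0.0012 to -0.029, and in MET-1 from 0.0018 to -0.020. The part of this length trend in any group below was not tested beyond a fit with the trends on length and GC content removed, whose values are given where they bear on a group.

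**Figure D1:**
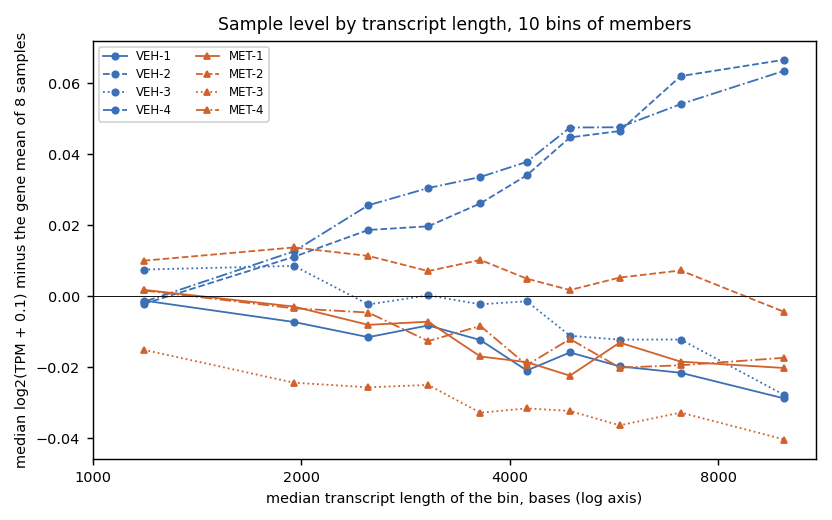
Median deviation of each sample from the gene mean of the 8 samples (log2(TPM + 0.1), vertical axis) in 10 bins of genes by transcript length (bases, log axis), with VEH samples in blue and MET samples in orange. VEH-2 and VEH-4 rise with length to 0.067 and 0.063, while the other 6 samples end between -0.040 and -0.0044.

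The 21 genes of cholesterol synthesis were the largest group in which no gene was higher in MET. All 21 had a lower mean in MET, with a median log2 change of -0.081, or 5.47% lower, against -0.023 for all genes. The quartiles were -0.12 and -0.065 and the whole range from -0.22 in HSD17B7 to -0.0040 in PMVK. None passed at an adjusted p of 0.05, 3 had an unadjusted p under 0.05 (HMGCS1, HSD17B7 and EBP), and the samples did not overlap in 4, MVD, HSD17B7 and DHCR7 among them, all lower in MET, where the shares of all genes were 4.94% and 2.88%. The score of the group, the mean log2(TPM + 0.1) of its genes, was 5.07, 5.15, 5.11 and 5.11 in VEH and 5.01, 5.05, 5.01 and 5.02 in MET. Every MET sample was below every VEH sample, by little in the case of MET-2 and VEH-1. In MET, 1 to 3 of the 21 genes of a sample exceeded the VEH mean, and in VEH-1, the VEH sample with the lowest score, 5 did.

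HMGCS1 (ENSG00000112972.15, GRCh38 chr5:43287470-43313512, minus strand) makes HMG-CoA, from which the cell makes mevalonate. It had 181, 199, 199.9 and 204 TPM in VEH and 181, 173, 181 and 179 TPM in MET. VEH-1 lay within the MET values and the other VEH samples above them, for a log2 change of -0.13 (SE 0.039, unadjusted p = 0.0052, adjusted p = 0.904). FDPS, which makes farnesyl pyrophosphate, had 145 to 162 TPM in VEH and 145 to 154 TPM in MET, and its log2 change was -0.065 (95% interval -0.14 to 0.010).

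The later steps, from squalene to cholesterol, held HSD17B7, EBP and DHCR7, while MVD acts before squalene. HSD17B7 (ENSG00000132196.14, chr1:162790702-162812817, plus strand), the sterol 3-ketoreductase, had 14.3, 12.9, 12.3 and 11.6 TPM in VEH and 11.4, 10.96, 9.82 and 11.5 TPM in MET. All MET samples were below all VEH samples, for a log2 change of -0.22 (SE 0.069, unadjusted p = 0.0070, adjusted p = 0.933), but the gene has a pseudogene copy with which it may share reads. EBP (ENSG00000147155.11, chrX:48521799-48528716, plus strand), the sterol isomerase, had 76.9, 80.5, 81.0 and 79.5 TPM in VEH and 72.9, 79.4, 73.0 and 74.7 TPM in MET. MET-2 lay inside the VEH range and the other MET samples below it, with a log2 change of -0.084 (SE 0.033, unadjusted p = 0.024), or -0.053 with median-of-ratios scaling. Among the genes without overlap, picked out after their values were seen, the mevalonate decarboxylase MVD had 26.1 to 26.5 TPM in VEH and 22.7 to 25.1 TPM in MET. DHCR7, which reduces 7-dehydrocholesterol, had 51.13 to 53.7 TPM in VEH and 45.2 to 51.12 TPM in MET, so that its groups were apart by the last decimal alone.

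**Figure D2:**
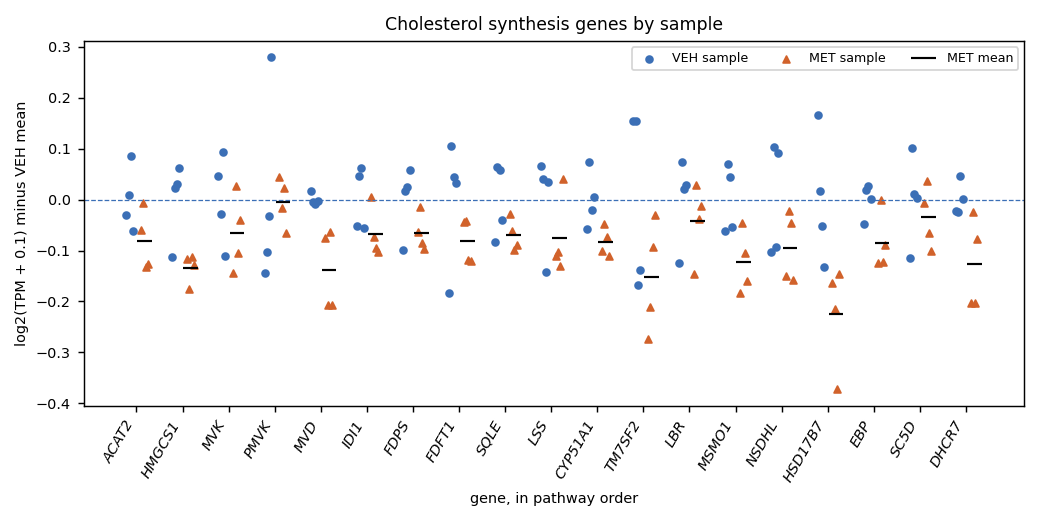
The 19 cholesterol synthesis genes shown, in pathway order (horizontal axis) with log2(TPM + 0.1) minus the VEH mean of the gene (vertical axis) for each VEH sample (blue circles) and MET sample (orange triangles), and the MET mean as a black bar. The MET mean is below 0 in all 19, from -0.0040 in PMVK to -0.22 in HSD17B7, while single samples overlap in 16 of them.

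Under other scalings the median of this group lay nearer 0, and with median-of-ratios scaling that of all genes moved up as well. The scores stayed apart, by little with median-of-ratios scaling. The median was -0.050 with median-of-ratios scaling, where that of all genes was 0.0075, and -0.067 with TPM taken over the nuclear protein-coding genes, with 20 of 21 genes lower in each. With the length and GC trends removed it was -0.085 with all 21 lower. Without VEH-2 and VEH-4 it was -0.057, against 0.0002 for all genes, with 17 of 21 lower. CJ28, compared with the same VEH samples, had a median log2 change of -1.51 in these genes, and since the controls are shared the 2 comparisons are only set side by side.

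The 17 genes of sterol sensing, uptake and transport had a median log2 change of -0.064 (-0.023 for all genes), and 15 of them (62.3% of all genes) were lower in MET. The median was -0.033 with median-of-ratios scaling (0.0075 for all genes), with 13 lower, and -0.049 without VEH-2 and VEH-4, with 11 lower. SCAP (ENSG00000114650.20, chr3:47413681-47477126, minus strand), the escort of the SREBF proteins, was the 1 gene of the 17 with an unadjusted p under 0.05. This is a share near the 4.94% of all genes. SCAP was also the 1 gene of the group without overlap, where 2.88% of all genes had none. It had 39.9, 39.8, 38.9 and 41.8 TPM in VEH and 35.5, 35.0, 37.3 and 37.4 TPM in MET. The groups did not overlap, and the log2 change was -0.14 (SE 0.041, unadjusted p = 0.0045, adjusted p = 0.889). SREBF2, whose promoter is shown above and which was picked out after its values were seen, had 13.2, 14.8, 11.9 and 14.8 TPM in VEH and 11.2, 12.9, 11.8 and 10.8 TPM in MET, with a log2 change of -0.22 (95% interval -0.48 to 0.034). INSIG1, itself a target of the SREBF proteins, had 79.1 to 84.2 TPM in VEH and 79.0 to 82.3 TPM in MET, which did not separate the groups. SOAT1, which esterifies cholesterol for storage, had a log2 change of -0.011 (SE 0.027) that turned to 0.020 with median-of-ratios scaling. SCARB1, the receptor through which the adrenal takes up high-density lipoprotein cholesterol, had 131 to 158 TPM in VEH and 131 to 138 TPM in MET. The score of this group overlapped between MET and VEH.

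The 23 genes of fatty acid synthesis, most of them read under SREBF1, had a median log2 change of -0.075, or 5.04% lower, against -0.023 for all genes, and 20 were lower in MET. Unadjusted p-values under 0.05 were found for 4, all lower (4.94% of all genes in either direction), and the samples of 1 did not overlap, a share near the 2.88% of all genes. The scores were 4.01, 4.06, 4.00 and 4.09 in VEH and 3.96, 3.98, 3.93 and 3.96 in MET, again with no overlap. ACLY (ENSG00000131473.17, chr17:41866917-41930542, minus strand), which makes cytosolic acetyl-CoA from citrate, had 39.7, 39.1, 38.2 and 40.1 TPM in VEH and 35.9, 36.1, 34.2 and 37.7 TPM in MET. It was the gene without overlap, with a log2 change of -0.13 (SE 0.039, unadjusted p = 0.0071, adjusted p = 0.933). FASN (ENSG00000169710.9, chr17:82078338-82098294, minus strand), the fatty acid synthase, had 10.5, 10.9, 6.57 and 9.55 TPM in VEH and 7.12, 6.4, 7.12 and 7.93 TPM in MET. VEH-3 lay in the MET range, and the log2 change was -0.37 (SE 0.16, unadjusted p = 0.043), or -0.22 without VEH-2 and VEH-4. SCD, the stearoyl-CoA desaturase, had 86.4 to 94.8 TPM in VEH and 83.7 to 88.6 TPM in MET, for a log2 change of -0.086 (unadjusted p = 0.031) that was -0.031 without VEH-2 and VEH-4. HSD17B12, a reductase of fatty acid elongation, had 14.2, 18.2, 13.3 and 17.3 TPM in VEH and 12.2, 13.1, 13.6 and 13.4 TPM in MET. Its log2 change of -0.25 (unadjusted p = 0.017) rested on VEH-2 and VEH-4, since without them it was -0.069. FADS2, a desaturase, and HACD3, a dehydratase of elongation, had log2 changes of -0.089 and 0.012, both with an interval that included 0.

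The fatty acid group shifted with the VEH samples more than the cholesterol genes did. Without VEH-4 its median was -0.043, and without VEH-2 and VEH-4 it was -0.034 with 17 of 23 genes lower. With median-of-ratios scaling it was -0.044 with 14 of 23 lower, where the median of all genes was 0.0075. The scores did not overlap after this scaling, nor with TPM over nuclear protein-coding genes, where the median was -0.061.

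The glucocorticoid receptor, its chaperones and target genes were examined because MET blocks the synthesis of cortisol, the receptor's ligand. Of 35 genes listed, 24 were among the genes compared, with a median log2 change of -0.055 (-0.023 for all genes) and 18 lower. The receptor NR3C1, picked out after its values were seen, had 3.51 to 3.97 TPM in VEH and 3.53 to 4.08 TPM in MET. TSC22D3 (ENSG00000157514.16, chrX:107713221-107777342, minus strand), also called GILZ, had 17.97, 17.6, 18.2 and 19.2 TPM in VEH and 16.4, 17.5, 16.8 and 16.6 TPM in MET. Its groups did not overlap, with a log2 change of -0.12 (SE 0.042, unadjusted p = 0.016, adjusted p = 0.933). CEBPD, a transcription factor, had 2.29, 1.47, 2.34 and 1.90 TPM in VEH and 1.41, 1.53, 1.63 and 1.61 TPM in MET, and VEH-2 lay among the MET samples (log2 change -0.33, SE 0.12, unadjusted p = 0.019, and -0.56 without VEH-2 and VEH-4). Other classical targets were not uniform. FKBP5 and PER1 had log2 changes of -0.19 and -0.19, SGK1 and DUSP1 had 0.11 and 0.067, and all 4, which were picked out after their values were seen, had intervals that included 0. PDK4, MT2A and HSP90AB1, the most abundant genes of the group, had -0.025, -0.039 and 5.3e-04, and PDK4 turned to 0.0060 with median-of-ratios scaling. The scores were 3.76, 3.77, 3.75 and 3.80 in VEH and 3.70, 3.70, 3.68 and 3.73 in MET without overlap. They overlapped after median-of-ratios scaling, where the median was -0.024, against 0.0075 for all genes. The 11 listed genes that were not among those compared include TAT, a liver target of the receptor, with at most 0.07 TPM in any sample.

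The enzymes of steroid synthesis showed no shared shift. Their 16 genes had a median log2 change of -0.016 (-0.023 for all genes), 10 lower and 6 higher, with 0 at an unadjusted p under 0.05 in limma and none without overlap. CYP11B1 (ENSG00000160882.12), the target of MET, was listed at 0, 0, 0.01 and 0 TPM in VEH and 0.02, 0, 0.05 and 0 TPM in MET. The aldosterone synthase CYP11B2 (ENSG00000179142.2) was listed at no more than 0.02 TPM in any of them. Both were far below the 1 TPM of the rule, so that their response could not be read at these levels. STAR, which brings cholesterol into mitochondria, had 53.3 to 59.7 TPM in VEH and 55.5 to 59.6 TPM in MET, and CYP11A1, which cuts the cholesterol side chain, had 90.6 to 94.9 and 91.1 to 95.4 TPM. The log2 changes were 0.045 (95% interval -0.053 to 0.14) and 0.020 (-0.040 to 0.081). POR, the electron donor of microsomal P450 enzymes, had -0.036 (-0.16 to 0.089). VEH-3 had the highest score of this group, 4.36 against 4.26 in each of the other 3 VEH samples, and the median without it was 0.010.

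The regulators of the adrenal cortex and of its cAMP signalling, 27 genes, had a median log2 change of -0.050 (-0.023 for all genes) with 22 lower, and their scores overlapped. Without VEH-2 and VEH-4 the median was -0.0098 with 14 lower. CREB1 (ENSG00000118260.15, chr2:207529737-207605988, plus strand), the cAMP response factor, had 4.81, 3.59, 3.88 and 3.95 TPM in VEH and 3.08, 3.44, 3.27 and 3.21 TPM in MET. The groups did not overlap and the log2 change was -0.30 (SE 0.090, unadjusted p = 0.0052, adjusted p = 0.904). PDE4D (ENSG00000113448.19, chr5:58969038-60522120, minus strand), a phosphodiesterase that degrades cAMP, had 15.5, 16, 14.99 and 15.6 TPM in VEH and 17.6, 17.1, 16.6 and 17.4 TPM in MET. It was higher in all MET samples, by 0.14 on the log2 scale (SE 0.038, unadjusted p = 0.0026, adjusted p = 0.889). NR0B1, also called DAX1 and a repressor of steroidogenic genes, had 2.91, 3.05, 3.22 and 2.58 TPM in VEH and 2.21, 2.14, 3.09 and 2.42 TPM in MET. MET-3 lay within the VEH range, and the log2 change was -0.26 (SE 0.11, unadjusted p = 0.034). The subunits and factors with the highest TPM here, PRKAR1A, GNAS and CREM, had log2 changes of -0.030, -0.061 and -0.040, each with an interval that included 0.

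The 13 protein-coding genes of the mitochondrial genome had the lowest median of all groups, -0.15, or 10.04% lower, against -0.023 for all genes, and all 13 were lower in MET. In most of the 13, VEH-4 had the highest value of all MET and VEH samples, so these genes are not independent of each other. At an unadjusted p under 0.05 there were 3, and 1 was without overlap, against 4.94% and 2.88% of all genes. MT-CO2, a subunit of cytochrome oxidase, was that gene, with 3575, 3610, 3719 and 4071 TPM in VEH and 3408, 3387, 3388 and 3506 TPM in MET (log2 change -0.13, SE 0.056, unadjusted p = 0.041, adjusted p = 0.933). MT-ND5, a subunit of complex I, had 181, 217, 204 and 230 TPM in VEH and 180.1, 182, 184 and 191 TPM in MET. VEH-1 lay among the MET samples (log2 change -0.17, unadjusted p = 0.011, and -0.063 without VEH-2 and VEH-4). MT-ND6, the complex I gene of the other strand, had 134, 149, 164 and 173 TPM in VEH and 129, 134, 142 and 135 TPM in MET (log2 change -0.19, unadjusted p = 0.018). MT-CO3, the most abundant, had 6321 to 6860 TPM in VEH and 6296 to 6362 TPM in MET, with a log2 change of -0.060 (95% interval -0.13 to 0.0069). Mitochondrial genes lie close together on both strands, and the strand setting of the counting is not given in the sources used here.

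The size of this shift moved with VEH-4. The scores were 9.62, 9.67, 9.64 and 9.93 in VEH and 9.54, 9.54, 9.59 and 9.61 in MET. VEH-4 stood far above the other 7 samples, and the lowest VEH score exceeded the highest MET score by little. Without VEH-4 the median was -0.067, and without VEH-2 and VEH-4 -0.060, with all 13 genes lower in both. Median-of-ratios scaling gave -0.12, against 0.0075 for all genes. The nuclear genes of the same respiratory chain stood on the other side of 0. Of 37 nuclear complex I genes, 29 were higher in MET with a median log2 change of 0.029, against -0.023 for all genes. Of 25 genes of complexes II to IV, 17 were higher with a median of 0.017, and of 16 genes of ATP synthase, 11 were higher with a median of 0.014. Their scores overlapped between the groups. The complex I median remained above 0 in every alternative tried, from 0.013 without VEH-2 and VEH-4 to 0.060 with median-of-ratios scaling. The genes of these nuclear groups are short, with a median transcript length of 1548 bases for complex I against 3931 for all genes. It was 1396 bases for complexes II to IV and 2083.5 for ATP synthase. With the length and GC trends removed, the median of complexes II to IV was 0.0045 with 10 of 25 lower in MET. That of ATP synthase was 0.013 with 7 of 16 lower. The part of length in the contrast with the mitochondrial genes was not tested further.

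**Figure D3:**
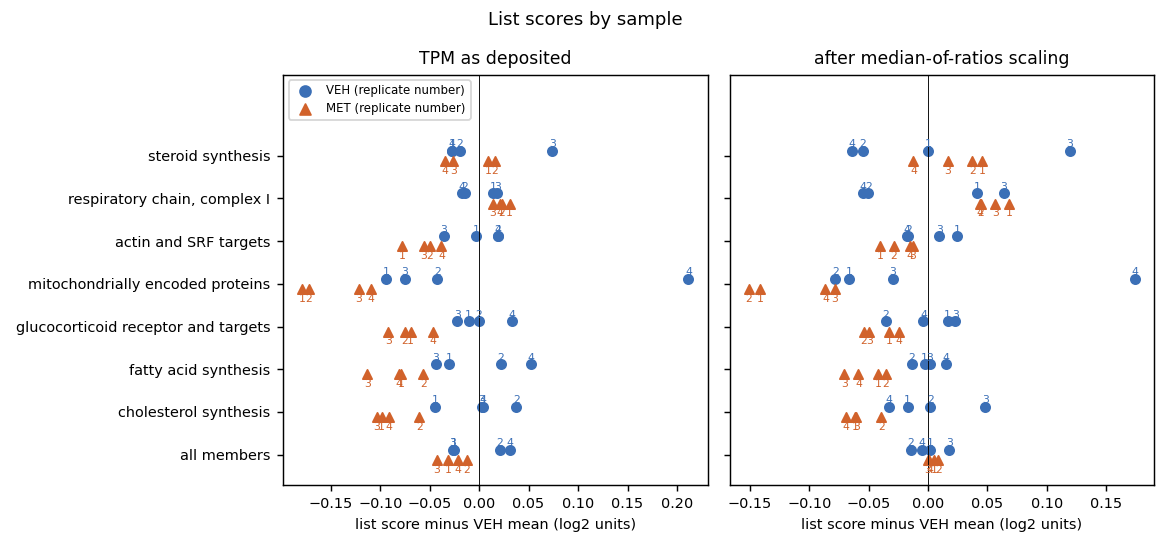
Score of 8 groups of genes (mean log2(TPM + 0.1) of the group) in each sample minus the VEH mean (horizontal axis), for TPM as deposited on the left and after median-of-ratios scaling on the right, with VEH as blue circles and MET as orange triangles and the replicate number at each point. MET lies below VEH without overlap in both panels for cholesterol synthesis, fatty acid synthesis and the mitochondrially encoded proteins. In the right panel the mitochondrial scores are barely apart, and the glucocorticoid receptor and actin groups overlap.

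Of 42 lists with at least 2 genes, 33 had a median log2 change below 0 and 17 a median below that of all genes. The score did not overlap in 7 lists, all lower in MET, and in 3 lists after median-of-ratios scaling. These 3 were cholesterol synthesis, fatty acid synthesis and the mitochondrially encoded proteins. The mitochondrial scores were then barely apart, at 9.5659 in VEH-2 and 9.5653 in MET-3. The nearest cholesterol scores were 5.005 in VEH-4 and 4.998 in MET-2. The other 4 of the 7 were the glucocorticoid receptor list, actin and targets of its factor SRF, the integrated stress response and the tRNA synthetases. As deposited, the tRNA synthetases were barely apart, at 4.8011 in VEH-1 and 4.8006 in MET-1, and actin at 5.3995 in VEH-3 and 5.3972 in MET-4. Of the 33 medians below 0, 18 turned above 0 with median-of-ratios scaling, and 0 of the others turned below it. This scaling divides each sample by a single factor and moved all genes up nearly alike, so these turns follow from the scaling. Without VEH-2 and VEH-4, where fewer samples had to separate, the small cytosolic ribosomal subunit was also without overlap, with a score higher in MET by 0.0085.

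The actin list had a median of -0.042 in 29 genes (-0.023 for all genes), with 26 lower. TPM1, a tropomyosin, had 3.42, 3.70, 3.71 and 3.54 TPM in VEH and 3.05, 3.08, 3.07 and 3.02 TPM in MET. The groups were clearly apart, with a log2 change of -0.23 (SE 0.068, unadjusted p = 0.0058, adjusted p = 0.904). ACTN4, an actin crosslinker, had 121 to 127 TPM in VEH and 115 to 117 TPM in MET without overlap (log2 change -0.094, unadjusted p = 0.028), and the capping protein CAPZB 22.5 to 26.3 and 22.6 to 23.5 TPM (log2 change -0.095, unadjusted p = 0.046, and -0.063 without VEH-4). VIM and MYL6, the most abundant, had -0.069 and 0.013. After median-of-ratios scaling the median was -0.011 with 17 of 29 lower, against 0.0075 for all genes.

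The integrated stress response is the set of genes switched on by ATF4 when amino acids or protein folding fail. Its 24 genes had a median of -0.017 (-0.023 for all genes), with 13 lower and 11 higher. The median turned to 0.014 with median-of-ratios scaling, against 0.0075 for all genes. NUPR1, a stress-induced chromatin protein, had 1.32, 1.62, 1.41 and 1.33 TPM in VEH and 1.17, 0.98, 1.13 and 0.84 TPM in MET, lower in every MET sample (log2 change -0.43, SE 0.12, unadjusted p = 0.0038, adjusted p = 0.889, and -0.25 with a pseudocount of 1). DDIT3, also called CHOP, had 16.4 to 17.1 TPM in VEH and 17.5 to 18.9 TPM in MET, higher in every MET sample (log2 change 0.10, unadjusted p = 0.029). CEBPB, SHMT2 and ATF4 had -0.20, -0.011 and 0.022 with intervals that included 0. The 23 tRNA synthetases had a median of -0.0088, closer to 0 than that of all genes. It turned to 0.022 with median-of-ratios scaling, against 0.0075 for all genes. LARS1 was higher by 0.081 (unadjusted p = 0.028), and VARS1, EPRS1 and TARS1 had -0.16, 0.054 and 0.038 with intervals that included 0.

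Protein synthesis and degradation machinery, the cell cycle and other stress programmes had medians near 0. Those below 0 here turned above it with median-of-ratios scaling, which moved all genes up nearly alike. The medians were 0.0064 for the large and 0.0098 for the small cytosolic ribosomal subunit, 5.4e-04 for the mitochondrial ribosome, 0.0050 for the proteasome, -0.0060 for DNA replication and -0.019 for mitosis. They were -0.020 for chaperones of the endoplasmic reticulum, -0.0042 for heat shock genes, -0.016 for NRF2 targets and -0.019 for p53 targets. Among responses that a small molecule could set off in a cell, the 5 measured genes of the aryl hydrocarbon receptor list had a median of -0.040 and the 10 of the pregnane X receptor list -0.047, both with overlapping scores. The liver X receptor list, which holds the receptors and their targets, had the highest median, 0.055, but 7 genes split into 4 higher and 3 lower. The 16 circadian genes had -0.073 with quartiles of -0.14 and -0.0051 and overlapping scores.

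**Figure D4:**
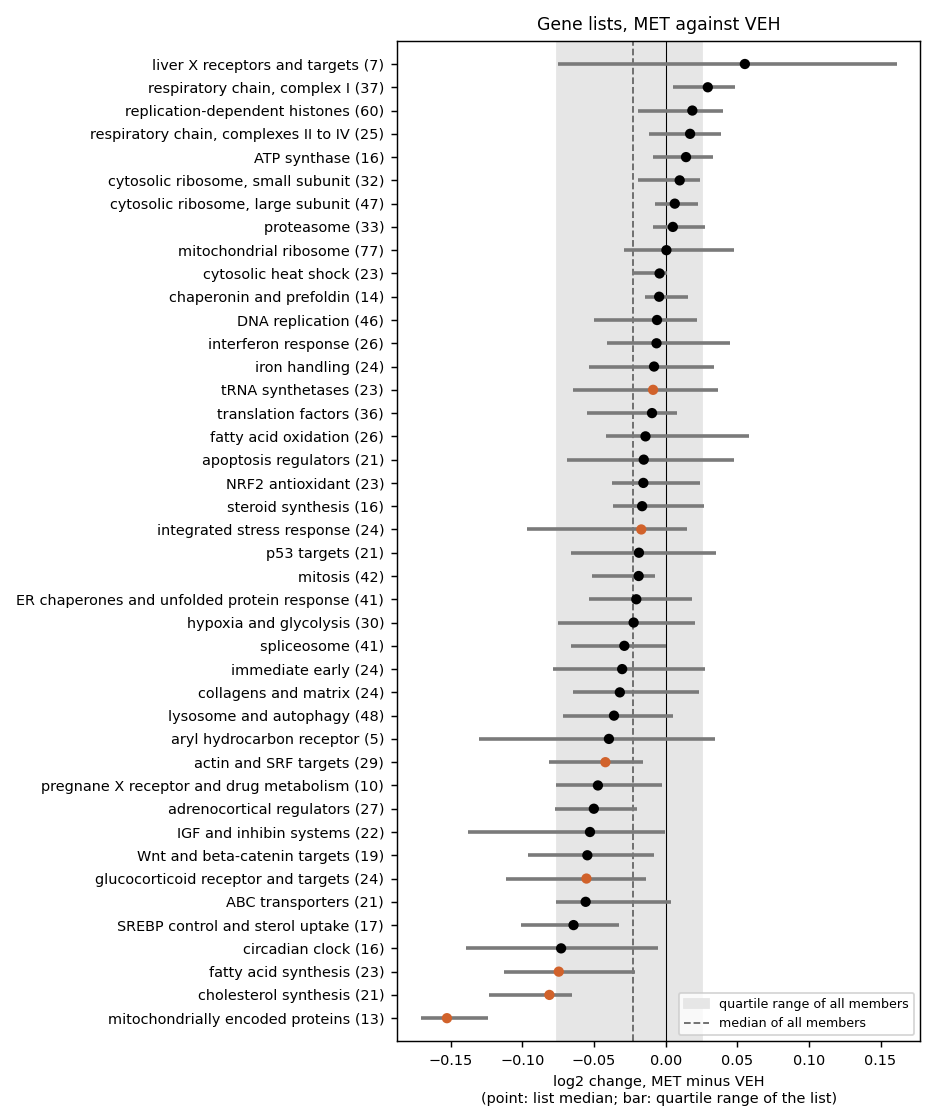
Median log2 change (MET minus VEH, horizontal axis) of each list, with the number of genes in parentheses and the range between the quartiles of its genes as a bar, over the same range (grey) and median (dashed) of all genes compared. Orange points mark the 7 lists whose score per sample did not overlap, and the lowest medians are -0.15 for the mitochondrially encoded proteins, -0.081 for cholesterol synthesis and -0.075 for fatty acid synthesis.

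Single genes at the ends of the range were taken from those with a mean of at least 5 TPM and no overlap, which fixes their direction, so they are given as a description. The 6 with the largest lower values were TNFAIP1, an adaptor of a cullin ubiquitin ligase, HCFC1R1, the ubiquitin-conjugating enzyme UBE2Q1, the transcription factor TFAP4, the pyrimidine synthesis enzyme CAD and the cell-surface protein FLRT2, with log2 changes of -0.47, -0.36, -0.36, -0.33, -0.32 and -0.30. TNFAIP1 had 8.17, 8.48, 6.81 and 7.82 TPM in VEH and 5.40, 6.38, 5.34 and 5.28 TPM in MET. CAD had 6.75, 7.67, 7.52 and 8.32 TPM in VEH and 5.84, 5.44, 6.13 and 6.68 TPM in MET. In both, the nearest samples of the groups were close to each other relative to their spread. The 6 with the largest higher values were FAM166B, KRBOX1, the clamp loader subunit CHTF18, the chromatin protein UBN2, GTPBP8 and the DNA repair enzyme ALKBH2, with log2 changes of 0.26, 0.23, 0.22, 0.19, 0.19 and 0.19. Leaving out 1 sample moved GTPBP8 to 0.11 (without VEH-3) and ALKBH2 to 0.11 (without VEH-2). UBN2 had 7.76, 7.49, 7.48 and 7.73 TPM in VEH and 8.75, 9.10, 8.01 and 9.02 TPM in MET. FAM166B had 5.64, 5.75, 5.14 and 5.68 TPM in VEH and 6.64, 6.80, 6.44 and 6.71 TPM in MET, and its MET samples stood clear of the VEH samples.

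The identity of the cells was checked on marker lists. Of 10 adrenocortical markers, 9 were among the genes compared, with a summed level of 416 to 439 TPM in VEH and 404 to 418 TPM in MET. Their score did not overlap between the groups as deposited, with a median log2 change of -0.067, and overlapped after median-of-ratios scaling. The median was -0.022 without MET-4 and -0.034 without VEH-2 and VEH-4. Of the 9 markers compared, 7 were lower in MET and 2 were higher, STAR (log2 change 0.045) and CYP11A1 (0.020). NR5A1, the master regulator of the steroidogenic lineage, had 45.2 to 49.5 TPM in VEH and 44.5 to 48.7 TPM in MET. INHA, the inhibin alpha subunit, had 1.51 to 1.88 TPM in VEH and 1.00 to 1.63 TPM in MET. The intervals of the log2 change included 0 for NR5A1 (-0.18 to 0.042), INHA (-0.69 to 0.026), STAR and CYP11A1. Of the 7 endothelial, 7 blood immune and 7 fibroblast markers, 0 were among the genes compared, and their summed levels were at most 0.76, 1.13 and 1.69 TPM. Of 7 adrenal medulla markers 1 was, with summed levels of 6.83 to 7.40 TPM in VEH and 6.37 to 6.86 TPM in MET and 3 markers at 0 in every sample. In such bulk samples, fewer cells of a kind and less RNA per cell cannot be told apart.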

How the data were processed

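RNA was depleted of ribosomal RNA, turned into stranded libraries and read as paired ends. Per the submitters' processing notes and the methods of the study, the authors trimmed reads with cutadapt (version 2.8), aligned them to GRCh38 with STAR (version 2.7.10b) and counted with RSEM (version 1.3.3). The deposited values are TPM to 2 decimals, which keep no depth, so no counting error could be given, and the count test of the study could not be run. Groups were taken from the sample labels. Nothing says whether replicates came from separate platings, so p-values measure the spread between these samples.

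Log2(TPM + 0.1) of the 16815 genes with at least 0.5 TPM in 4 or more of 12 samples entered a limma fit (limma version 3.58.1 in R version 4.3.3) of all 12 samples without covariates, with a variance trend, two-sided tests and Benjamini-Hochberg adjustment over all genes fitted. The same fit was also run on simulated data, whose outcome is not given here. Gene lists (47, of which 5 hold markers) were described by medians, counts and a score per sample in Python (version 3.11.15, pandas version 2.3.3), without set tests. GC content and length came from the longest GENCODE transcript. The genes compared and the lists were chosen with earlier results of these data known, and so support nothing independently.

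Named genes are any called gene compared, CYP11B1 and CYP11B2, in the 6 lipid and adrenal lists those with an unadjusted p under 0.05 and the 3 with the highest TPM, in other lists with scores that do not overlap the 3 with the smallest p and the 2 with the highest TPM, and the 6 largest changes in each direction among genes of at least 5 TPM without overlap. Others are said to have been picked out afterwards, and some genes are counted in their lists but not reported here. Alternatives were pseudocounts of 1 and 0.01, other gene filters, a fit of VEH and MET alone, median-of-ratios scaling, TPM over nuclear protein-coding genes, a replicate block, a fit without the variance trend, GC content and length trends removed, each sample left out and, chosen after seeing the data, VEH-2 and VEH-4 left out together.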

Additional observations from a re-analysis of the deposited data

Results flagged for a closer look

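Among 206 groups of 4 samples, made of list scores and named genes, 8 had a highest or lowest sample whose gap to the next was far larger than the spread of the others (Dixon's test), where chance flags about 1 in 20. In VEH, the highest sample stood apart in the scores of steroid synthesis (VEH-3, 4.36), the pregnane X receptor list (VEH-2, 3.38), cytosolic heat shock (VEH-4, 5.32) and the mitochondrially encoded proteins (VEH-4, 9.93). In MET, MET-3 was lowest for the adrenocortical regulators (score 3.42), and MET-2 was highest for DNA replication (score 4.31), INSIG1 (82.3 TPM) and TNFAIP1 (6.38 TPM).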

How the results depend on the processing

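The count of 0 genes at an adjusted p under 0.05 was found in every alternative in which it was computed. The counts by direction depended on the scaling and on single samples. With median-of-ratios scaling, 314 genes were higher and 204 lower at an unadjusted p under 0.05, 45.9% were lower, 197 higher and 131 lower genes did not overlap, and the medians were 0.0075 for all genes, -0.024 for the glucocorticoid receptor list and -0.050 for cholesterol synthesis. With TPM over nuclear protein-coding genes, which leaves out the mitochondrial genes and so gives them no fitted value, 228 were higher at an unadjusted p under 0.05 and 146 higher genes did not overlap. Without VEH-2 and VEH-4, 215 were higher and 197 lower, 49.8% were lower, 656 higher and 625 lower genes did not overlap (with fewer samples to separate), and the medians were -0.0098 for the adrenocortical regulators, -0.020 for the glucocorticoid receptor list and -0.034 for fatty acid synthesis. When single samples were left out, the genes with an unadjusted p under 0.05 ranged from 119 to 156 higher and from 258 (without VEH-4) to 607 (without VEH-3) lower. Those without overlap ranged from 152 to 217 higher and from 326 to 739 lower, above the 78 and 246 with all samples. Fewer samples had to separate there, which by itself raises the counts without overlap. The cause of the other moves was not tested.

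Samples of equal replicate number were not more alike in their deviations, but 4 such values cannot tell whether platings were shared. The correlation of deviations between MET and VEH samples of one number was -0.039, -0.094, -0.089 and 0.040, and 0 of 4 numbers correlated best with their own. With the replicate number as a block, 0 genes passed at an adjusted p under 0.05, and 131 were higher and 521 lower at an unadjusted p under 0.05. Median-of-ratios scaling turned the log2 change of PRKAR1A to 7.8e-04, PDK4 to 0.0060, SOAT1 to 0.020 and SHMT2 to 0.020. TPM over nuclear protein-coding genes turned SOAT1 to 0.0032 and SHMT2 to 0.0032. Each of these scalings divides a sample by a single factor, which moves all genes nearly alike, so small values below 0 turn by it. With the trends removed, HSP90AB1 was -0.0041. With single samples left out, the sign turned in 5 genes, whose ranges were -0.016 to 0.014 for HSP90AB1, -0.047 to 0.0090 for SHMT2, -0.059 to 0.014 for PDK4, -0.0025 to 0.040 for ATF4 and -0.025 to 0.0056 for SOAT1. Without VEH-2 and VEH-4, GNAS was 0.013, PDK4 0.024, SOAT1 0.013 and ATF4 -0.017.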
